A study of Mus musculus with 6 samples.

Results

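The proteins of the mitochondrial ribosome that carry an Mrpl or Mrps symbol were examined in brown fat of cold-exposed mice whose adipocytes lacked adenylyl cyclase 3. Genes were taken if their Ensembl identifier belonged to a protein-coding gene whose symbol begins with Mrpl or Mrps followed by a number. This gave 78 of the 54385 rows of the deposited table, 49 named for the large subunit (Mrpl) and 29 named for the small subunit (Mrps). All 78 passed the low-count filter and were tested among 14767 genes.

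Mitochondria have their own ribosome, which makes the few subunits of the respiratory chain and of ATP synthase that the mitochondrial genome encodes. Its ribosomal RNAs come from that genome, whereas every one of its proteins is encoded in the nucleus, made in the cytosol and imported. The small subunit binds and decodes the mRNA, and the large subunit joins the amino acids and docks to the inner membrane. Brown adipocytes are packed with mitochondria and burn fuel for heat through Ucp1, so their demand for newly made respiratory chain is high in the cold.

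The tissue was interscapular brown fat, the depot between the shoulder blades, of C57BL/6N mice that had been on a chow diet for 20 weeks and were kept at 5 °C for 24 hours. The 3 knockout libraries came from mice with both Adcy3 alleles floxed and 1 Adipoq-Cre allele (Adcy3-FL/FL/Adipoq-wt/cre). The 3 control libraries came from mice with the same floxed alleles and no Cre (Adcy3-FL/FL/Adipoq-wt/wt), and both groups were exposed to cold. The labels number the libraries of a group as replicates and do not say that each is a separate animal. Adcy3 encodes a membrane enzyme that makes cyclic AMP, and the Adipoq promoter drives Cre in mature fat cells of all depots. The series' design text names another fat depot and more replicates, so tissue, treatment and group were taken from the sample labels. Each library came from polyadenylated RNA, and total estimated counts lay between 13956786 and 17538044.

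Adcy3 itself stood at 25.4 ± 4.35 CPM (estimated counts scaled to 1000000 per library) in knockouts and 154 ± 17.6 CPM in controls (SD, n = 3 each), an edgeR log2 fold change of -2.60 ± 0.17 (SE) with an adjusted p of 0.00146. Ucp1 was at 7148, 7098 and 7579 CPM in the knockout libraries, against 5389, 5997 and 5839 CPM in the control libraries. The defining brown fat transcript was thus abundant in all 6 and, in CPM, higher in every knockout than in every control (edgeR adjusted p = 0.235). Scaled per transcript length (TPM, explained below), knockout 1 lay at 6029, below control 3 at 6263. The 10 brown adipocyte markers summed to 11328, 10286 and 11109 CPM in knockouts, against 8107, 9091 and 8626 CPM in controls, a ratio of 1.27. The 6 general adipocyte markers summed to 10076, 8269 and 8769 CPM in knockouts, against 7659, 7402 and 8053 CPM in controls, a ratio of 1.17. As a plain share of counts, without the TMM correction for composition, they made up 0.957, 0.815 and 0.843% in knockouts. In controls they made up 0.787, 0.748 and 0.862%, so the groups overlapped, with a ratio of 1.09. In TPM the ratio was 1.04. The brown adipocyte markers had ratios of 1.18 by share and 1.135 in TPM, without overlap. Skeletal muscle markers, a list of 20 genes, made up 0.898, 0.0659 and 0.00956% of counts in knockouts, against 2.03, 1.84 and 1.57% in controls. All 20 were lower in knockouts and none passed the test. The 8 fibroblast markers summed to between 0.0281 and 0.0458% of counts in knockouts and between 0.0525 and 0.0805% in controls. Their part in the values that follow was not tested. A fit with a muscle score as a covariate was made, but the score differed between the genotypes without overlap, so it cannot separate muscle from genotype. In whole tissue, fewer cells of a type and less RNA per cell cannot be told apart.

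The 78 genes were scattered over 17 chromosomes, with 11 on chromosome 11, and were compact. The median coding length was 582 bases, against 1383 bases for the other tested protein-coding genes, and the median exon number was 5 against 9. GC content did not stand apart, at a median of 50.4% against 50.5%. A gene on the opposite strand started within 1000 bases, head to head, of 18 of the 78 (23.1%), against 9.84% of 12980 other tested protein-coding genes. RefSeq promoter sequences of GRCm38.p6 were matched for 69 of the 78, spanning 250 bases before to 50 after the start. In these windows 3 short motifs were searched on both strands, the motif of nuclear respiratory factor NRF1 (GCGCANGCG), the motif of ETS-family factors such as GABP (CCGGAAGT) and the motif of YY1 (AAGATGGC). NRF1 letters were found in 16 of 69 promoters (23.2%) against 14.8% of the promoters of other tested genes. ETS letters were found in 12 (17.4%) against 8.78%, and YY1 letters in 12 (17.4%) against 5.08%. At least 1 of the 3 stood in 37 of 69 (53.6%), against 25.7% of 10149 promoters of other tested genes. A match describes the letters and is no proof of binding.

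The following promoters show how such letters lie near the start of genes at both ends of the abundance order. Each runs 5′ to 3′ on the strand of the gene, from 150 bases before to 30 after the start, and capitals mark the matched letters of NRF1 or ETS, written as their reverse complement where the match is on the other strand. Mrps26, among the least abundant per transcript length, lies at chr2:130563607-130563786 on the plus strand and holds overlapping NRF1 matches and an ETS match. Mrpl43, among those with the largest fold change, lies at chr19:45006413-45006592 on the minus strand and holds an ETS match. Mrpl30 (chr1:37890327-37890506, plus strand) and Mrpl12 (chr11:120484487-120484666, plus strand) are among the most abundant, and both hold NRF1 matches.
Mrps26 promoter: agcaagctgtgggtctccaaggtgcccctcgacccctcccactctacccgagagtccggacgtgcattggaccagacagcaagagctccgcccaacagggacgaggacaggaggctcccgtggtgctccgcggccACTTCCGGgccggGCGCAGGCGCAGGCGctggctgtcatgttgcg
Mrpl43 promoter: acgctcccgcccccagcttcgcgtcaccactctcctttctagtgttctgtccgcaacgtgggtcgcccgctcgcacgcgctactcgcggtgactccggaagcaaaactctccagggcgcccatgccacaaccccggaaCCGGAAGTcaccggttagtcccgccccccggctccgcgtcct
Mrpl30 promoter: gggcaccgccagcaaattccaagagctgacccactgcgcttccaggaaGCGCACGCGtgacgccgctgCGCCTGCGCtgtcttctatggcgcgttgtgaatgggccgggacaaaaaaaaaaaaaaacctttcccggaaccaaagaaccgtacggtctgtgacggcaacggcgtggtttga
Mrpl12 promoter: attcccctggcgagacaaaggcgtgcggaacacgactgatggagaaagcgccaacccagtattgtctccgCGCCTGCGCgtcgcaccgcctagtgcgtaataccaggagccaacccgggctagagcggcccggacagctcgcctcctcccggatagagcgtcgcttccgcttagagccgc
The median log2 fold change was 0.24 for the 37 genes with any of the motifs and 0.25 for the 32 without.

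Levels per length were computed as TPM, counts divided by the length of 1 principal transcript a gene and scaled to the same total in each library,, and spread widely within what is a single particle. Averaged over the 6 libraries, TPM ran from 5.14 for Mrpl23 to 235 for Mrpl42, a ratio of 45.6, with a median of 49.3 and quartiles at 22.6 and 72.7. The low place of Mrpl23 and the ratio are uncertain, as a pseudogene copy described below averaged 47.0 TPM. The next lowest gene was Mrpl19 at 7.89 TPM. Transcript models with long 3′ ends lower TPM, so the order is approximate. Divided by coding length instead, the 6 highest genes were all among the top 7, but the highest was Mrpl51, which is in place 34 of 78 by TPM. Mrpl17 moved to place 17 by coding length, against 73 by TPM, and Mrps26 to 61, against 76, while Mrpl23 was last on both scales. Mrpl42, a large subunit protein, was at 245, 214 and 240 TPM in knockouts, against 234, 238 and 237 TPM in controls. Next came Mrps36 and Mrpl34, whose libraries overlapped with those of Mrpl42 and with each other. Mrps36 was at 267, 191 and 213 TPM in knockouts and 166, 197 and 193 TPM in controls. Its product was first described as a mitoribosomal protein and is now known as a subunit of the 2-oxoglutarate dehydrogenase complex. Mrpl34 was at 271, 185 and 191 TPM in knockouts and 170, 202 and 208 TPM in controls. Mrps21 and Mrpl12 followed, at 159 and 156 TPM averaged over all libraries, and Mrpl30 at 119 TPM. Mrpl12 makes up part of the stalk that recruits translation factors and also binds the mitochondrial RNA polymerase. In all, 9 genes averaged above 100 TPM.

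At the low end, Mrpl19 was at 7.81, 7.71 and 7.89 TPM in knockouts and 8.27, 7.49 and 8.14 TPM in controls, and Mrps26 at 11.7, 7.67 and 7.13 TPM in knockouts and 8.31, 9.50 and 9.88 TPM in controls. Mrpl23, a protein near the exit of the peptide tunnel, was at 4.37, 3.14 and 6.42 TPM in knockouts and 4.60, 6.86 and 5.46 TPM in controls. Its low value goes with a copy: the pseudogene Mrpl23-ps1 on chromosome 2 is 100% identical to it over 540 bases and held 1656 counts over the 6 libraries, against 220 counts for Mrpl23. Reads of the pair could have been split between them, so their sum is the safer value. It was 22.6, 18.6 and 18.7 CPM in knockouts and 18.8, 16.9 and 21.7 CPM in controls, with a log2 fold change of 0.06 ± 0.15 and an edgeR adjusted p of 0.936. A pseudogene copy of at least 95% identity over at least 200 bases existed for 19 of the 78 genes, and 3 of these copies held 10 counts or more. The others were Gm5776 with 311 counts against 3036 for Mrps33, and Gm14017 with 16 against 11373 for Mrpl51.

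**Figure D1:**
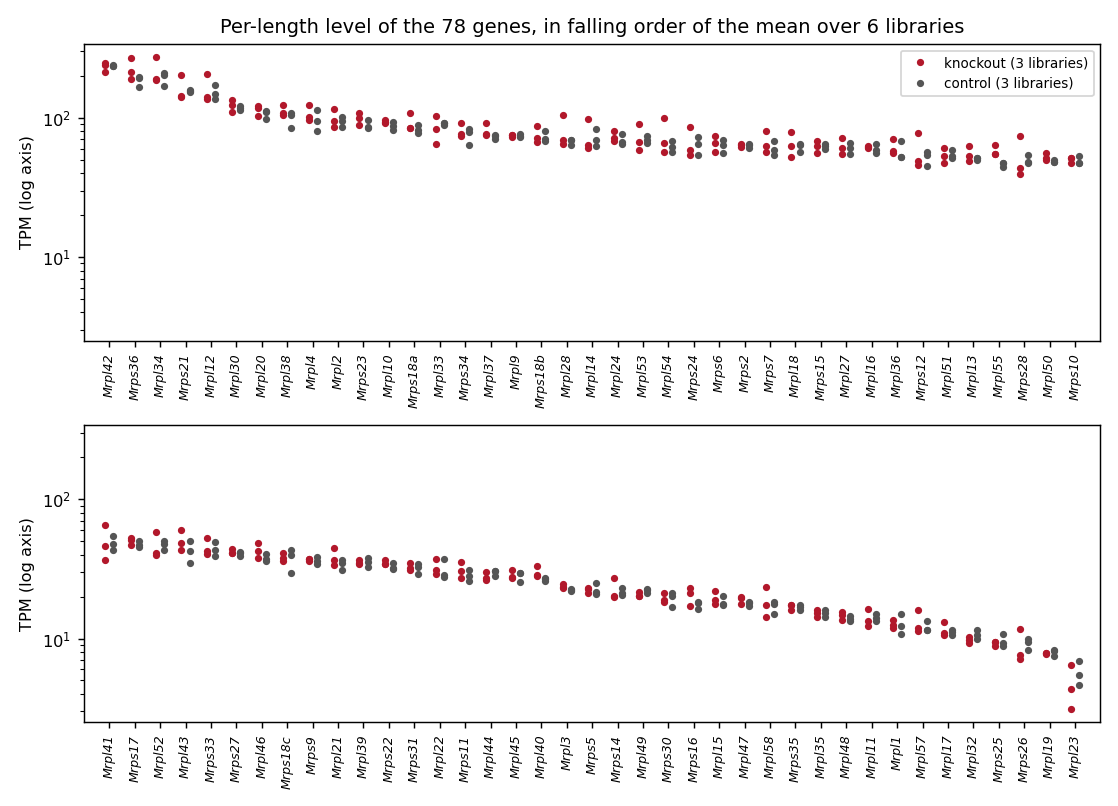
Per-length level (TPM, log axis) of each of the 78 genes in every library, in falling order of the mean over 6 libraries, with knockout points (red) to the left of control points (grey). Mrpl42 leads at 235 TPM and Mrpl23 is last at 5.14 TPM, and for most genes the points of both genotypes overlap. The value of Mrpl23 is uncertain because of its pseudogene copy.

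Between genotypes, 77 of the 78 genes had a positive log2 fold change, knockout over control, by a small amount, and none passed the test. Brown adipocyte markers differed the same way, with 10 of 10 positive and a median of 0.34, as did general adipocyte markers, with 6 of 6 positive and a median of 0.22, and none of these was called. Their part in the values of the 78 genes was not tested. The median of the 78 was 0.25, with quartiles at 0.18 and 0.30 and a range from -0.09 to 0.50, against a median of 0.01 over all 14767 genes, of which 51.7% were positive. With library size alone in place of TMM scaling, 73 were positive and the median was 0.14, against -0.09 over all genes. A fit that took each library's muscle score as a further term gave a median of 0.47. The score was 1.59, -2.63 and -5.83 in knockouts and 2.52, 2.32 and 2.04 in controls. As the groups did not overlap in it, that fit cannot separate muscle from genotype. Across all genes edgeR called 9 (0.0609%) at an adjusted p of 0.05, and 0 of the 78 were among them. The smallest adjusted p among the 78 was 0.285. At an unadjusted p of 0.05, 10 of 78 passed, against 10.5% of all tested genes, so that count was near the background. It moved widely with the fit. It was 4, 32 and 3 without knockout 1, knockout 2 and knockout 3, where 16.6, 11.6 and 7.67% of all genes passed. Without control 1, control 2 and control 3 it was 1, 3 and 2, against 6.47, 7.99 and 7.98% of all genes. It was 52 with an offset for transcript length and GC content, against 25.1% of all genes, 45 with the muscle score as a term, against 15.4%, 1 without TMM scaling, against 11%, and 1 with the replicate number as a block, against 9.72%. DESeq2 called 0 of the 78 as well. The median SE of a gene was 0.155, against the median difference of 0.25. On counts simulated for these libraries, edgeR recovered 7.89% of genes changed by 1.5-fold and 42.1% of those changed by 2-fold.

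Large and small subunit genes shifted alike. The median log2 fold change was 0.26 for the 49 large subunit genes, of which 48 were positive, and 0.24 for the 29 small subunit genes, of which 29 were positive. The ratio of their summed CPM, large over small, was 1.84, 1.80 and 1.87 in knockouts and 1.84, 1.82 and 1.84 in controls, so the balance between the subunits differed by less than the spread between libraries. The names follow the symbol; Mrps18a and Mrps30, for example, sit in the large subunit in known structures. Summed over the 78 genes, the level was 4673, 3339 and 3704 CPM in knockouts, against 3207, 3280 and 3283 CPM in controls. The knockout mean of 3905 ± 689 CPM was 1.20 times the control mean of 3256 ± 43.0 CPM (SD, n = 3 each), and every knockout library lay above every control library. As a plain share of counts, without the TMM scaling that corrects for composition, the values were 0.444, 0.329 and 0.356% in knockouts and 0.329, 0.331 and 0.352% in controls, and the groups overlapped. In TPM the ratio of the sums was 1.06.

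Mrpl55, a large subunit protein, had the most positive fold change and the smallest p of the 78. It was at 43.2, 32.3 and 34.8 CPM in knockouts, against 25.7, 27.0 and 25.4 CPM in controls. All knockout libraries were above all controls, with a log2 fold change of 0.50 ± 0.14 and an edgeR adjusted p of 0.285. Mrps36 was at 135, 84.1 and 101 CPM in knockouts, against 71.7, 84.1 and 76.9 CPM in controls (log2 fold change 0.46 ± 0.18, edgeR adjusted p = 0.437). Knockout 1 and knockout 3 were above the controls there, and knockout 2 was level with the highest control, above it by less than the printed digits show. Mrpl43, another large subunit protein, was at 60.4, 42.7 and 40.9 CPM in knockouts and 30.04, 36.4 and 39.9 CPM in controls (0.44 ± 0.18, edgeR adjusted p = 0.467).

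For other genes of large fold change knockout 1 was highest, knockout 3 also lay above all controls and knockout 2 did not. Mrpl54 was at 43.9, 21.6 and 26.7 CPM in knockouts and 21.2, 22.6 and 23.6 CPM in controls (log2 fold change 0.45 ± 0.25, edgeR adjusted p = 0.575). Mrpl28 was at 81.3, 43.5 and 50.2 CPM in knockouts and 41.6, 44.8 and 42.3 CPM in controls (0.44 ± 0.22, edgeR adjusted p = 0.542). In both, knockout 1 was well above all other libraries. Mrps16, a conserved small subunit protein, was at 42.9, 27.5 and 36.9 CPM in knockouts and 25.9, 28.9 and 26.6 CPM in controls (0.40 ± 0.17, edgeR adjusted p = 0.477).

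The most abundant genes were not those of largest fold change, apart from Mrps36. Mrpl42 was at 118, 89.8 and 108 CPM in knockouts and 95.9, 96.5 and 89.8 CPM in controls (log2 fold change 0.16 ± 0.13). Mrpl34 was at 119, 70.7 and 78.2 CPM in knockouts and 63.5, 74.7 and 71.9 CPM in controls (0.35 ± 0.20). In both the genotypes overlapped, as knockout 2 lay among the controls. Mrps21 was at 72.2, 43.3 and 46.7 CPM in knockouts and 47.8, 46.4 and 42.5 CPM in controls (0.25 ± 0.20). Mrpl12 was at 196, 113 and 125 CPM in knockouts and 110, 118 and 130 CPM in controls (0.28 ± 0.21). For these genes knockout 1 was the sole library outside the range of the controls. Mrpl30 was at 93.4, 66.5 and 80.0 CPM in knockouts and 72.3, 66.4 and 64.6 CPM in controls (0.24 ± 0.15). The scarce Mrpl19 and Mrps26 had log2 fold changes of 0.15 ± 0.13 and 0.13 ± 0.23. The edgeR adjusted p of the most and least abundant genes other than Mrps36 ran from 0.595 for Mrpl34 to 0.959 for Mrpl23.

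In a few genes every knockout was higher than every control, without knockout 1 standing far above the other knockouts. Mrpl47, a protein at the exit of the peptide tunnel, was at 43.2, 41.1 and 44.8 CPM in knockouts, against 35.6, 37.5 and 34.7 CPM in controls (log2 fold change 0.26 ± 0.11, edgeR adjusted p = 0.454). Mrpl50 was at 79.2, 74.2 and 70.4 CPM in knockouts, against 64.7, 61.9 and 58.1 CPM in controls (0.28 ± 0.11, edgeR adjusted p = 0.446). Mrpl40 was at 26.4, 22.6 and 28.8 CPM in knockouts, against 21.6, 20.1 and 19.5 CPM in controls (0.35 ± 0.14, edgeR adjusted p = 0.442). These 3 had groups that did not overlap, and none passed the adjusted test.

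At the other end, the genes with the least positive values held both genotypes in 1 range. Mrpl32, whose maturation by an inner membrane protease is a step in large subunit assembly, was at 22.4, 18.4 and 19.0 CPM in knockouts and 21.2, 18.2 and 18.1 CPM in controls (log2 fold change 0.06 ± 0.14). Mrpl33 was at 35.5, 19.4 and 26.7 CPM in knockouts and 26.2, 26.8 and 25.1 CPM in controls (0.06 ± 0.21). Mrpl44, a large subunit protein with an RNase III fold, was at 30.9, 23.5 and 26.1 CPM in knockouts and 26.9, 26.5 and 22.6 CPM in controls (0.08 ± 0.15). In all 3 the knockout libraries spanned the controls or overlapped with them. Mrpl49 was at 27.5, 22.6 and 24.0 CPM in knockouts and 24.1, 22.7 and 22.95 CPM in controls (0.09 ± 0.13), and Mrps25 at 41.5, 33.5 and 38.7 CPM in knockouts and 32.9, 34.6 and 37.1 CPM in controls (0.12 ± 0.13). The adjusted p of these genes ran from 0.795 for Mrps25 to 0.951 for Mrpl33, by edgeR. Mrpl23 alone was negative, at -0.09 ± 0.35, with 2.16, 1.37 and 3.02 CPM in knockouts and 1.94, 2.92 and 2.14 CPM in controls, and its value is uncertain because of its pseudogene.

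**Figure D2:**
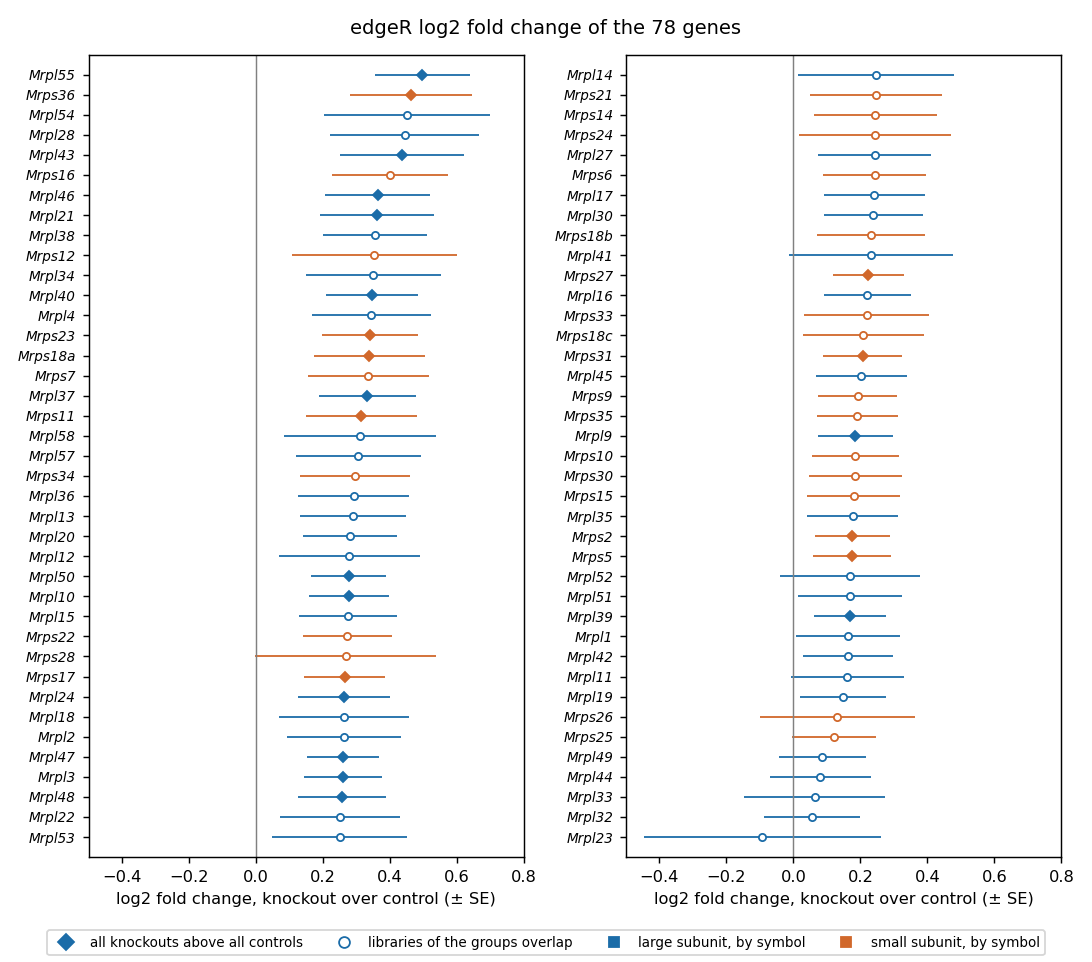
edgeR log2 fold change, knockout over control, with its SE, of the 78 genes in falling order; blue marks large and orange small subunit genes by symbol, and filled diamonds mark genes whose knockout libraries all lay above all controls. Values run from 0.50 for Mrpl55 to -0.09 for Mrpl23, and 23 genes are drawn as diamonds.

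In 23 of the 78 genes (29.5%) every knockout library was above every control library, against 7.63% of all tested genes with that order. In lists given below, the share was 30.5% of nuclear respiratory chain subunits, 30.8% of mitochondrially encoded mRNAs and 38.5% of mitochondrial translation factors. It was 11.1% of assembly factors and 0% of cytosolic ribosomal proteins. In 0 of the 78 was every knockout below every control, against 1596 of all 14767 tested genes. Without TMM scaling every knockout was above every control in 6 of 78 (7.69%), against 3.26% of all genes. The 23 were spread over both subunits, with 14 large and 9 small subunit genes. They included Mrpl3, Mrpl24 and Mrps5, which have bacterial counterparts, and mitochondrion-specific proteins such as Mrpl37, Mrpl39, Mrps23, Mrps27 and Mrps31. The genes given next were chosen after their values were seen. Mrps27, an RNA-binding small subunit protein with pentatricopeptide repeats, was at 55.2, 51.0 and 50.9 CPM in knockouts, against 46.6, 43.9 and 44.1 CPM in controls (log2 fold change 0.22 ± 0.11, edgeR adjusted p = 0.519). Its knockout libraries lay close together. Mrpl10, which anchors the stalk of the large subunit, was at 118, 97.6 and 107 CPM in knockouts, against 85.7, 90.6 and 90.2 CPM in controls (0.28 ± 0.12, edgeR adjusted p = 0.477). Mrps23 was at 104, 74.1 and 89.8 CPM in knockouts, against 70.01, 68.3 and 73.1 CPM in controls (0.34 ± 0.14, edgeR adjusted p = 0.467). In Mrpl10 and Mrps23 knockout 1 was highest and knockout 2 was nearest to the controls.

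Before any correction for transcript length and GC content, the size of the shift differed between the knockout libraries. Set against the mean of the controls, the median log2 CPM of the 78 genes was 0.52 higher in knockout 1, 0.03 higher in knockout 2 and 0.17 higher in knockout 3, while the control libraries lay at -0.02, 0.01 and 0.01. Above the control mean were 77, 49 and 74 of the 78 genes in the knockouts, against 31, 42 and 42 in the controls. Knockout 1 was the highest of all 6 libraries for 73 of the 78 genes (93.6%), against 28.2% of all tested genes. The exceptions were Mrpl1, Mrpl23, Mrpl40, Mrpl47 and Mrps15. The order knockout 1 over knockout 3 over knockout 2 held for 61 of the 78 (78.2%), against 25.7% of all tested genes.

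**Figure D3:**
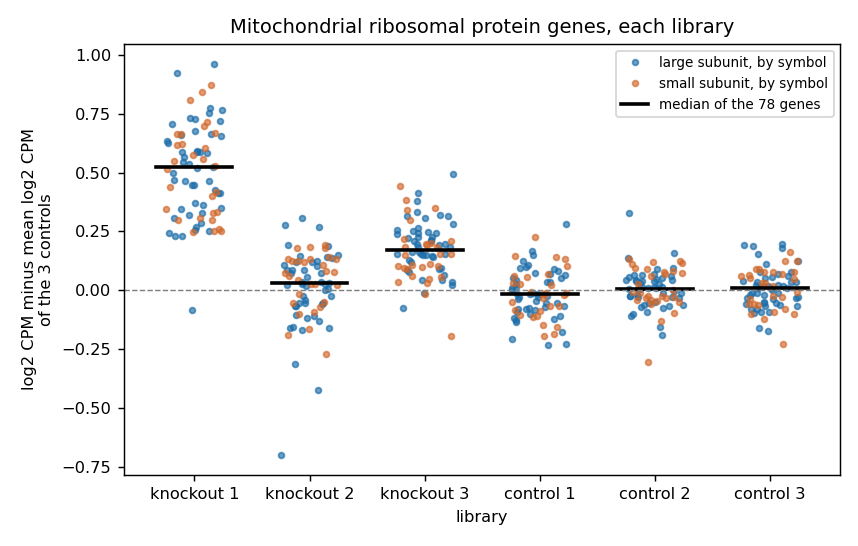
Difference of each gene's log2 CPM from the mean log2 CPM of the 3 controls (vertical axis) in each library, with 1 point for each of the 78 genes and a bar at the median. The medians are 0.52, 0.03 and 0.17 in the knockouts and -0.02, 0.01 and 0.01 in the controls, so the points of knockout 1 lie highest and those of knockout 2 lie close to the controls. The values carry no correction for transcript length and GC content.

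Without knockout 1, the median log2 fold change was 0.11, with 64 genes positive and 14 negative, against 0.00 over all genes. In knockouts 2 and 3 both, 23 of the 78 genes (29.5%) were above all controls, against 15.3% of all tested genes. In both, 2 of the 78 (2.56%) were below all controls, against 18.9% of all tested genes. On the first principal component of all genes, which held 58.3% of the variance, knockout 1 lay at -20.7, nearer to the controls (between -43.8 and -34.8) than to knockout 2 at 54.02 and knockout 3 at 80.9. On the second, with 16.5% of the variance, it lay apart from all other libraries. For each library, gene-wise deviations of log2 CPM from the mean of all libraries were set against transcript length and GC content. That trend explained 18.3% of their variance in knockout 1, against 3.15 and 1.10% in the other knockouts and 4.03, 2.00 and 4.23% in the controls. The 78 genes are short, with a median transcript of 1253 bases against 2843 for all tested genes. Among them the shorter 39 deviated by a median of 0.58, 0.02 and 0.19 in the knockouts and the longer 39 by 0.40, 0.07 and 0.16. After the trend was taken out of each library, the 78 genes had medians of 0.32, 0.23 and 0.34 above the control mean in the knockouts. Knockout 3 was then highest. The same medians over all genes were 0.06, 0.18 and 0.19, so they were raised as well, least in knockout 1. With length and GC taken into account in the fit, the median was 0.31 for the 78 genes and 0.15 for all genes, a difference of 0.16, and 76 were positive. That fit called 0 of the 78 as well, with a smallest adjusted p of 0.0941.

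The genes that work with the mitoribosome were set beside it. The 5 mitoribosome proteins whose symbols begin otherwise were close to the 78, with 5 positive of 5 and a median log2 fold change of 0.24. In that list Aurkaip1, a small subunit protein, was at 0.38 ± 0.18 (edgeR adjusted p = 0.51), and Dap3, a GTP-binding small subunit protein, at 0.24. Of 13 mitochondrial translation factors 9 were positive, with a median of 0.15 and library medians of 0.10, 0.16 and 0.24 in the knockouts. The ribosome recycling factor Mrrf (0.33 ± 0.12, edgeR adjusted p = 0.40) and the elongation factor Tsfm (0.37 ± 0.15, edgeR adjusted p = 0.464) had the smallest p of that list. Of 27 assembly factors 21 were positive, with a median of 0.12, among them Mpv17l2 (0.49 ± 0.19, edgeR adjusted p = 0.427) and the small subunit chaperone Eral1 (0.26 ± 0.11, edgeR adjusted p = 0.465). Of 20 genes that charge mitochondrial tRNAs 15 were positive, with a median of 0.09. These were tRNA synthetases and the amidotransferase subunits Qrsl1, Gatb and Gatc. The arginyl enzyme Rars2 was at 0.37 ± 0.12 (edgeR adjusted p = 0.344). Of 16 genes of mitochondrial transcription and RNA processing 16 were positive, with a median of 0.12. None of these lists held a called gene. In knockout 1 the median of the other mitoribosome proteins lay 0.50 above the controls, near the 0.52 of the 78 genes. That of the assembly factors lay 0.20 above, the translation factors 0.10, the tRNA charging genes 0.08 and the transcription genes 0.06. These differences between lists were not tested.

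The mRNAs that the mitoribosome translates and its ribosomal RNAs had log2 fold changes of similar size. Of 13 mitochondrially encoded mRNAs 12 were positive, with a median log2 fold change of 0.22. Their library medians were 0.23, 0.11 and 0.31 in the knockouts and 0.09, 0.04 and -0.12 in the controls. Knockout 3 was thus highest, unlike in the 78 genes, and the controls lay further apart. The mRNA of the complex I subunit mt-Nd3 was at 0.47 ± 0.12 (edgeR adjusted p = 0.244). That of the ATP synthase subunit mt-Atp6 was at 0.30 ± 0.09 (edgeR adjusted p = 0.302). The mitochondrial ribosomal RNAs mt-Rnr1 and mt-Rnr2 were at 0.27 and 0.17, in libraries selected for polyadenylated RNA. The summed CPM of the 78 genes over that of the mitochondrially encoded mRNAs was 0.0169 ± 0.00304 in knockouts and 0.0160 ± 0.00143 in controls.

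The nuclear-encoded respiratory chain, whose subunits assemble with the proteins of those mRNAs, showed the same order of knockout libraries as the 78 genes. The list also took in subunits of ATP synthase, and its Cox7a1 and Cox8b are among the brown adipocyte markers as well. Of 82 tested subunits 79 were positive, with a median log2 fold change of 0.32 and library medians of 0.64, 0.03 and 0.23 in the knockouts. The summed CPM of the 78 genes over that of the nuclear respiratory chain was 0.107, 0.102 and 0.103 in knockouts and 0.109, 0.105 and 0.105 in controls, or 0.104 ± 0.00232 and 0.106 ± 0.00196 (SD, n = 3 each), and the groups overlapped. The 77 cytosolic ribosomal protein genes, which build the ribosome outside mitochondria, differed from the mitochondrial ones in knockout 2 and knockout 3. Their library medians were 0.48, -0.29 and -0.03 in the knockouts, and 77, 1 and 27 of 77 were above the control mean. Their median log2 fold change was 0.08, with 57 positive. The order of the knockout libraries was nonetheless the same as in the 78 genes, with knockout 1 highest and knockout 2 lowest. The assembly factors held that order too (0.20, 0.02 and 0.12), and the translation factors did not (0.10, 0.16 and 0.24). The differences between the lists were not tested.

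**Figure D4:**
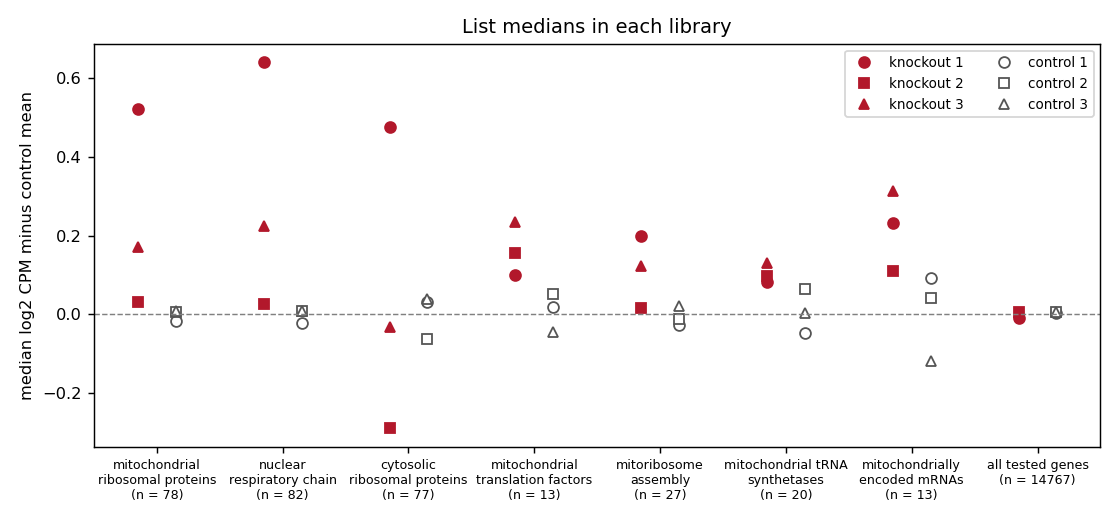
Median over the genes of each list of log2 CPM minus the control mean (vertical axis), with 1 symbol per library, filled for knockouts and open for controls. The list labelled tRNA synthetases also holds the amidotransferase subunits Qrsl1, Gatb and Gatc, and the respiratory chain list also holds ATP synthase subunits. Knockout 1 lies high for the mitochondrial ribosomal proteins (0.52), the nuclear respiratory chain (0.64) and the cytosolic ribosomal proteins (0.48), whereas knockout 2 lies at 0.03, 0.03 and -0.29 for the same lists.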

How the data were processed

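Estimated counts per gene, which need not be whole, were deposited by the authors for 6 libraries. Per the submitters' processing notes, StringTie, Salmon and edgeR were used on GRCm38; their versions, the annotation release and the use of strand remain not given in the sources used here. Library preparation was NEBNext Ultra II, paired-end, per the labels' protocols.

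Identifiers were named from GENCODE vM21 on GRCm38 (54131 matched, 254 not). Counts were rounded and tested with edgeR 4.0.16 in R 4.3.3 (filterByExpr, minimum count 10 and minimum total 15; TMM; quasi-likelihood F test, two-sided, genotype the sole term), with p adjusted by Benjamini-Hochberg over 14767 genes at 0.05. SE is the log2 fold change over the root of F. CPM is scaled by the TMM-adjusted library size; log2 CPM used a prior count of 2. The common biological coefficient of variation was 25.2%. Since the labels name replicates without saying that they are separate animals, p-values measure only the spread between these samples, which may be technical. Chi-square per degree of freedom between pairs of libraries within a group ran from 11.9 to 66.8, so none was a copy of another of its group. Pairs across the groups were not compared in this way. The procedure was tested on simulated data. Copies were sought with blastn 2.17.0.

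The members, lists and tests were chosen with earlier results of these data known, and the cytosolic ribosomal protein and respiratory chain lists were made by symbol pattern. Genes were named by rule: the 6 highest and 3 lowest per length, the 6 most positive and 6 most negative fold changes, the 5 with the smallest p, and from each non-marker list the 2 with the smallest p. Genes outside it were chosen after their values were seen. Alternatives were other scalings (including RLE), DESeq2 1.42.0, limma-voom (limma 3.58.1), other filters, a replicate block, each library left out, a muscle score covariate and a length and GC offset.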

Additional observations from a re-analysis of the deposited data

How the results depend on the processing

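No alternative called any of the 78 genes (smallest adjusted p between 0.0941 and 0.723 over the settings). The number of called genes over the whole table was 9 in the reported edgeR fit, and 307 with DESeq2, 33 with limma-voom, 893 with no low-count filter, 22 with the muscle score as a covariate, 18 with library size alone in place of TMM (chosen after seeing the data), and between 4 and 857 when each library was left out, the last without knockout replicate 1. The cause of these differences was not tested. With the replicate number as a block 4 genes were called and the median of the 78 was 0.23. Libraries of the same number correlated at 0.0739, 0.107 and 0.0531 in their deviations from the group means. That does not pair them, although every library correlated best with its own number. With the muscle score the medians were 0.47 for all 78, 0.47 for large and 0.48 for small subunit genes; leaving out each library gave 0.11 to 0.35 for all 78, 0.11 to 0.36 for large and 0.12 to 0.31 for small. Library size alone gave a median of 0.14 for the 78 and -0.09 for all genes, a shift of 0.23 between them, and a ratio of the summed levels of 1.12. Leaving out each library gave a ratio between 1.08 and 1.29. Signs turned for some genes close to 0. Mrpl33 was at -0.0081 with the length and GC offset, -0.016 with the offset and the replicate block, and -0.042 with library size alone. Library size alone also gave -0.046 for Mrpl32, -0.021 for Mrpl44 and -0.017 for Mrpl49, and Mrpl23 summed with its pseudogene was at 0.059. Over the fits that left out each library, Mrps21 ran from -0.016 to 0.38, Mrpl12 from -0.0013 to 0.43, Mrps26 from -0.19 to 0.27, Mrpl32 from -0.037 to 0.12, Mrpl33 from -0.17 to 0.26, Mrpl44 from -0.032 to 0.17 and Mrpl23 from -0.40 to 0.15. mt-Nd3 was called with DESeq2 (adjusted p = 0.0409) and with no filter (edgeR adjusted p = 0.0436). Lists moved with the length and GC offset, under which the median of all genes was 0.15, against 0.01 in the reported fit. With 3 libraries a group, few changes of 1.5-fold were recovered on simulated counts.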

Other observations

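Regulators that are known to drive nuclear genes of mitochondria were tested as a list of 10, of which 6 had a positive log2 fold change, with a median of 0.09, and none was called. Gabpa, the DNA-binding subunit of the ETS-family factor GABP, was at 57.2, 86.4 and 85.8 CPM in knockouts and 68.1, 65.3 and 67.2 CPM in controls (log2 fold change 0.19 ± 0.17, edgeR adjusted p = 0.748). Knockout 1, where the 78 genes were highest, was thus its lowest library, but the highest library of Esrra, given below. Nrf1 was at 0.07 ± 0.15 and Yy1 at 0.00 ± 0.11. These were chosen after their values were seen because their motifs were searched in the promoters. Of the list, Esrra, the nuclear receptor ERR alpha, was at 301, 202 and 223 CPM in knockouts and 167, 201 and 210 CPM in controls (log2 fold change 0.33 ± 0.18, edgeR adjusted p = 0.571). Myc was at -0.51 ± 0.37 (edgeR adjusted p = 0.683). The part of these regulators in the values of the 78 genes was not tested.

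The genes that start head to head with the 18 members did not all share their values. Of 17 tested partners 12 were positive, with a median log2 fold change of 0.16 and a range from -0.37 for Ska3 to 0.33 for Sars2, a mitochondrial tRNA synthetase. The 17 members beside them were all positive, with a median of 0.24, and no partner was called. Exons of 33 of the 78 genes overlapped with another gene, 8 of them on the same strand, and Mrpl46 and Mrps11 overlapped with each other on opposite strands; how the counting treated strand was not stated in the labels.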
